A study of Mus musculus with 28 samples.

Results

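The peaks of 5-hydroxymethylcytosine (5hmC) in bone marrow cells that lack both Tet1 and Tet2 were compared with those in cells that lack Tet2 alone. The members were all peaks on chromosomes 1 to 19 in the 2 double knockout (DKO) lists and the 2 Tet2 knockout (Tet2KO) lists, chosen by genotype and assay. They numbered 549091 peaks in 4 of the 6 5hmC libraries, out of 1489550 peaks in all 11 peak lists of the series. The series holds 28 mouse samples, of which 17 RNA-seq libraries were not analysed here. The mice behind the peak lists were C57BL/6 and 6 to 10 weeks old, and the cells were of the type the labels call LK, an abbreviation they do not spell out. Both groups compared lacked Tet2, so the comparison is of Tet1 loss on a background without Tet2. No group lacking Tet1 alone was analysed here, nor could the cell type be checked against expression markers, since peak lists of a DNA mark hold none. Wild-type (WT) libraries are given beside the others as a reference.

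TET1, TET2 and TET3 are dioxygenases that oxidise 5-methylcytosine (5mC) in DNA to 5hmC and onward to formylcytosine and carboxylcytosine, which can be replaced by unmodified cytosine. TET2 is often mutated in human blood cancers, and TET1 and TET2 differ in structure, since TET1 carries a CXXC domain that binds CpG-rich DNA and TET2 has none. In the capture method used here, hMe-Seal, a glucosyltransferase places a modified glucose on 5hmC, biotin is attached to it, and the tagged fragments are pulled down and sequenced. A peak is a stretch where such fragments pile up, so a list shows where and how widely 5hmC passed the caller's threshold, not the share of cytosines modified.

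The number of peaks did not differ beyond the spread between libraries. DKO replicate 1 had 129556 peaks and DKO replicate 2 had 143346, and the Tet2KO libraries, with 136320 and 139869, lay between them. The means were 136451 ± 9751 (SD, n = 2) and 138094.5 ± 2510 (SD, n = 2), a difference of -1.19% (exact two-sided permutation p = 1). With 2 libraries against 2, this test cannot give a p below 0.333. WT replicates had 128026 and 134816 peaks.

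The length of genome under 5hmC peaks was higher in DKO than in Tet2KO, with no overlap. Peaks covered 109.7 Mb and 105.5 Mb in the DKO libraries and 101.1 Mb and 98.2 Mb in the Tet2KO libraries. Both WT values, 111.4 Mb and 108.8 Mb, lay near those of DKO. DKO averaged 107.6 ± 2.97 Mb (SD, n = 2) and Tet2KO 99.6 ± 2.08 Mb (SD, n = 2), a difference of 7.94 Mb or 7.97%, and the exact permutation p was 0.333, the smallest this design allows. On each of the 19 autosomes both DKO libraries covered more than both Tet2KO libraries, from 4.45% more on chromosome 19 to 10.5% more on chromosome 11. Read depth, which can change both the number and the width of called peaks, is not given in the sources used here, and its part in this difference was not tested.

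Peaks were wide in 1 of the DKO libraries. Median width was 706 bp in DKO replicate 1 and 624 bp in DKO replicate 2, against 634 bp and 599 bp in Tet2KO and 729 bp and 682 bp in WT. The groups therefore overlapped, with means of 665 ± 58.0 bp and 616.5 ± 24.7 bp (SD, n = 2 each) and an exact permutation p of 0.667. Without DKO replicate 1 the median width in DKO was only 1.22% above Tet2KO, and without DKO replicate 2 it was 14.5% above. Narrow and broad peaks gave the same order of libraries. The 10th percentile of width was 476 bp and 416 bp in DKO and 420 bp and 409 bp in Tet2KO, and the 90th percentile was 1371 bp and 1178 bp against 1185 bp and 1112 bp. Peaks over 2 kb numbered 3891 and 2338 in DKO, 2352 and 1825 in Tet2KO, and 3949 and 3181 in WT.

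DKO replicate 1 was also wider at equal score rank. Each peak was given the percentile of its score within its own list, with 100 the highest, because the scores of different libraries may not share 1 scale. In the lowest decile of scores (10% of the list) the median widths were 536 bp and 475 bp in DKO and 482 bp and 458 bp in Tet2KO. In the top decile they were 1533.5 bp and 1301 bp against 1328 bp and 1244 bp. DKO replicate 1 was the widest of the 4 libraries in every decile, while DKO replicate 2 stayed close to Tet2KO replicate 1. The share of peaks with a score of at least 100 varied little, at 48.3% and 48.2% in DKO and 47.0% and 47.8% in Tet2KO.

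**Figure D1:**
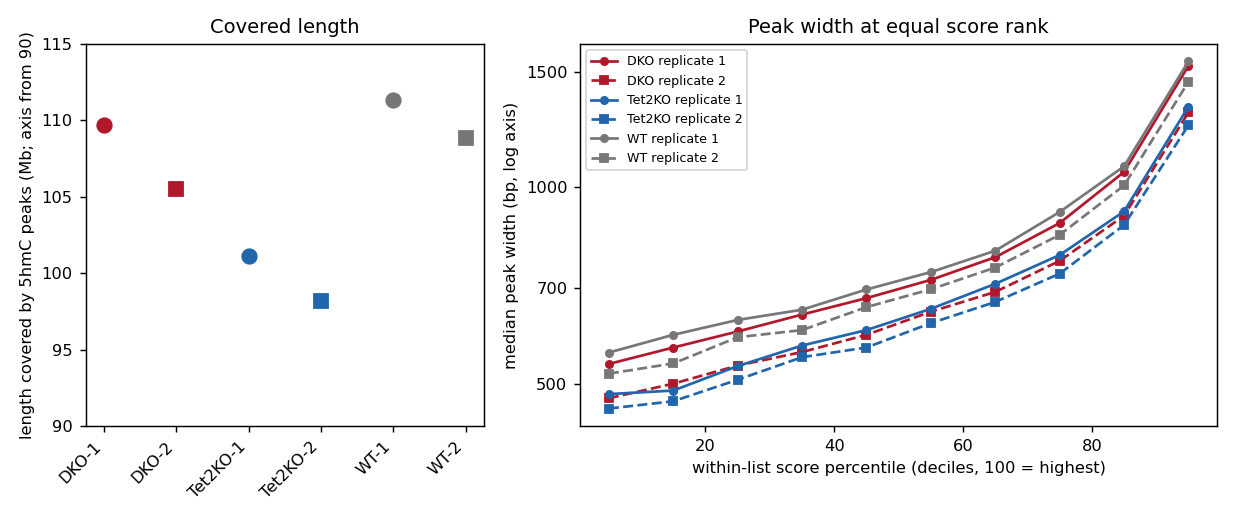
Left, the length covered by 5hmC peaks in Mb (axis from 90) for each library, and right, the median peak width in bp (log axis) in each decile of within-list score. The DKO libraries cover 105.5 Mb and 109.7 Mb, above both Tet2KO libraries, whereas by width DKO replicate 1 runs with WT and DKO replicate 2 runs with Tet2KO.

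Merging all peaks of the 4 libraries that overlapped by at least 1 bp gave 193185 regions. Of these, 73126 (37.9%) had a peak in all 4 libraries, 30437 (15.8%) in 3, 21384 (11.1%) in 1 library of each genotype, and 57537 (29.8%) in a single library. The regions with a peak in both DKO libraries and neither Tet2KO library numbered 6035, or 3.12% of all regions. Those with a peak in both Tet2KO libraries and neither DKO library numbered 4666, or 2.42%. Pairs of 1 DKO and 1 Tet2KO library had from 4515 (2.34%) to 6508 (3.37%) regions to themselves. Both counts of 1 genotype alone lay within that range. Regions called in a single library were more frequent in Tet2KO, with 17823 and 16664, than in DKO, with 8718 and 14332. Presence in 2 and 2 libraries allows no test per region.

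Replicates were not equally alike in the 2 genotypes. Counting for any 2 libraries the regions that either one called, the DKO pair had 64.0% in common and the Tet2KO pair 53.5%, below the 4 pairs that joined a DKO with a Tet2KO library (56.9% to 59.9%). A pair that shares fewer regions can hold fewer regions of its own genotype, and the part of this in the lower Tet2KO count was not tested. As a further description, regions found in 1 DKO library and absent from 1 Tet2KO library were looked up in the library of each genotype left out, for all 4 choices. In the 4 choices the left-out DKO library held 56.9%, 54.4%, 47.2% and 45.6% of them, and the left-out Tet2KO library 52.3%, 49.2%, 47.4% and 43.6%, so the DKO library held more in 3 of 4. Regions found in 1 Tet2KO library and absent from 1 DKO library were present in the left-out Tet2KO library at 31.5% to 33.1%, and in the left-out DKO library at 32.2% to 37.7%, so the other library of the same genotype held no more of them than the other genotype did.

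Much of the extra length in DKO lay in regions that Tet2KO libraries also called, but how much depended on the DKO library. Regions with a peak in all 4 libraries held 77.7 Mb and 72.0 Mb in DKO against 71.1 Mb and 68.5 Mb in Tet2KO, which came to 5.07 Mb, or 63.9%, of the 7.94 Mb. Without DKO replicate 1 these regions made up 2.18 Mb of 5.84 Mb (37.3%), and without DKO replicate 2 they made up 7.97 Mb of 10.04 Mb (79.3%). Regions with a peak in 3 libraries added 3.96 Mb (49.8%), and the library without a peak added no length there. Regions of both DKO libraries and 1 Tet2KO library (8914 and 10802 regions) added 3.03 Mb and 3.90 Mb. Those of both Tet2KO libraries and 1 DKO library (4961 and 5760 regions) changed it by -1.32 Mb and -1.65 Mb. The regions of both DKO libraries alone added 3.73 Mb (47.0%), and those of both Tet2KO libraries alone changed it by -2.50 Mb (-31.5%). Regions called in a single library changed it by a further -2.52 Mb (-31.8%), which was -1.43 Mb without DKO replicate 1. Regions called in 1 library of each genotype left a balance of 0.209 Mb (2.64%), whose sign turned to -0.266 Mb without DKO replicate 2.

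**Figure D2:**
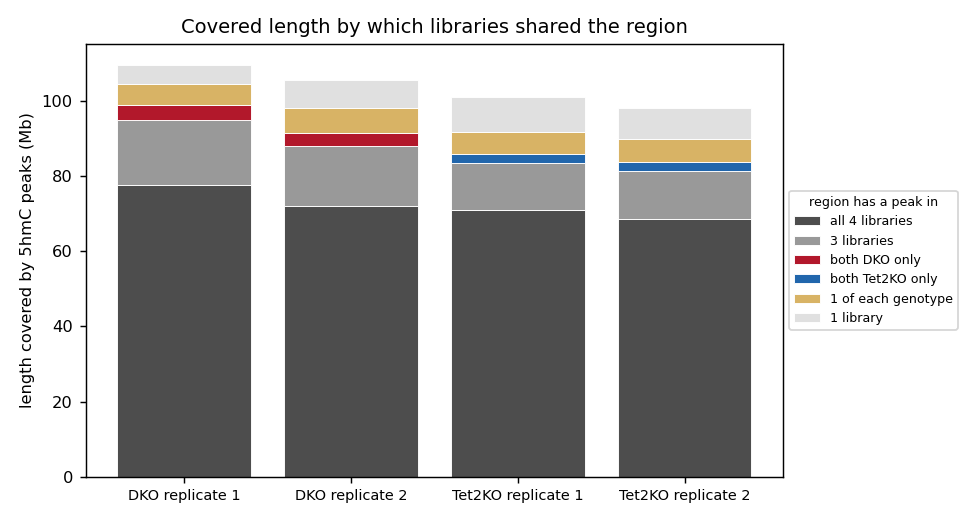
Length covered by 5hmC peaks in Mb in each of the 4 libraries, divided by which libraries had a peak in the merged region. The regions with a peak in all 4 libraries hold 68.5 Mb to 77.7 Mb per library, and the regions of 1 genotype alone form the thin red and blue bands.

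Regions of 1 genotype alone were narrow and low in score. The DKO regions had a median width of 655 bp (quartiles 557 and 802 bp) and median score percentiles of 23.6 and 28.1 in their 2 libraries. The Tet2KO regions had a median width of 588 bp (503 and 701 bp) and percentiles of 25.3 and 23.8. Regions with a peak in all 4 libraries, by contrast, had a median width of 1005 bp and median percentiles of 69.0 to 71.2. In both libraries at or above the 50th percentile were 270 (4.47%) of the DKO regions and 145 (3.11%) of the Tet2KO regions, and at or above the 70th percentile 14 and 10. Many lay close to a peak of the other genotype: the nearest was within 1 kb for 43.8% of the DKO regions and 39.9% of the Tet2KO regions, and within 5 kb for 81.9% and 78.4%. The median distance was 1264 bp and 1507 bp.

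The strongest of these regions stood well clear of the calling threshold. The highest-ranked region of DKO alone lay on chromosome 15 at 58529405 to 58530718 (1314 bp, mm9), at percentiles 90.1 and 93.3 in the DKO libraries, and both WT libraries had a peak there. Then came chromosome 5, 73270846 to 73271820 (percentiles 84.8 and 86.7), and chromosome 1, 52225175 to 52226731 (81.5 and 82.1). The list ended with chromosome 8, 72897584 to 72899176 (84.0 and 75.4), and chromosome 6, 134208546 to 134210540 (74.7 and 84.5). Both WT libraries had a peak at each of these 4 as well. For the region on chromosome 15 the nearest Tet2KO peak was 2215 bp away, and for the other 4 it was within 1 kb.

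Among the regions of Tet2KO alone the highest-ranked lay on chromosome 4 at 147873679 to 147875506 (1828 bp), at percentiles 87.6 and 92.5, with a peak in WT replicate 1 only. Chromosome 9 held a second, 3024272 to 3027919 (95.7 and 81.9), and a further one, 44021538 to 44022302 (77.7 and 84.1). Chromosome 16 held 85898862 to 85900395 (80.01 and 83.9), and chromosome 15 held 102155480 to 102155986 (84.8 and 75.02). Each of these 5 had a peak in exactly 1 of the WT libraries. The regions on chromosomes 4 and 16 and the first on chromosome 9 also carried a 5mC peak in all 5 5mC lists.

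By width the order differed. The widest region of DKO alone, on chromosome 5 at 35259833 to 35262423, spanned 2591 bp, but its peaks covered 2139 bp in DKO replicate 1 and 539 bp in DKO replicate 2. It was followed by chromosome 2, 153403592 to 153405676 (2085 bp), the chromosome 6 region given above (1995 bp) and chromosome 14, 118905704 to 118907682 (1979 bp), all with a peak in both WT libraries. The fifth, on chromosome 16 from 34089262 to 34091212 (1951 bp), had no WT peak. The widest regions of Tet2KO alone were the 3648 bp region at the start of chromosome 9 given above, covered over 3558 bp and 3636 bp, and a second one nearby at 3003852 to 3006072 (2221 bp). Chromosome 6 had one of 2073 bp (134143547 to 134145619) and chromosome 7 one of 1871 bp (144787775 to 144789645).

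Presence in WT, which played no part in choosing these regions, was somewhat more frequent for DKO alone than for Tet2KO alone. Both WT libraries had a peak in 30.1% of the DKO regions (exact binomial 95% interval 28.9% to 31.2%) and in 25.4% of the Tet2KO regions (24.1% to 26.6%), and neither did in 37.3% and 41.9%. These intervals cover counting error over regions only, and neighbouring regions are not independent. Over all 193185 regions the shares were 48.3% in both WT libraries and 30.3% in neither, so regions of either genotype alone were found in WT less often than regions in general. The 2 sets differ in width, and up to 900 bp the shares lay closer within classes of equal width, but not above. They were 17.0% and 16.6% up to 500 bp, 22.4% and 22.9% at 500 to 600 bp, 28.2% and 27.1% at 600 to 700 bp, 35.6% and 32.7% at 700 to 900 bp, and 45.9% and 39.7% above 900 bp. Regions with a peak in all 4 libraries were present in both WT libraries at 86.1%, and at 53.4% even in the narrowest class.

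Overlap with peaks of 5mC, the substrate of the TET enzymes, profiled by immunoprecipitation of methylated DNA (MeDIP-seq), also differed between the sets. A peak in all 5 5mC lists was found in 10.5% of the DKO regions (exact binomial 95% interval 9.76% to 11.3%), in 6.92% of the Tet2KO regions (6.21% to 7.69%) and in 16.8% of the regions with a peak in all 4 5hmC libraries. Over all regions the share was 11.6%, near that of the DKO regions. No 5mC peak at all was found in 73.5%, 80.3% and 62.1%, and in 71.7% of all regions. Here the DKO regions had the higher share in each of the 5 width classes, from 5.72% against 3.90% up to 500 bp to 16.5% against 11.5% above 900 bp. The 5mC lists of DKO and of Tet2KO gave similar shares for a given set: DKO regions overlapped 18.6% and 16.0% with the 2 DKO 5mC lists and 17.7% with the Tet2KO list.

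**Figure D3:**
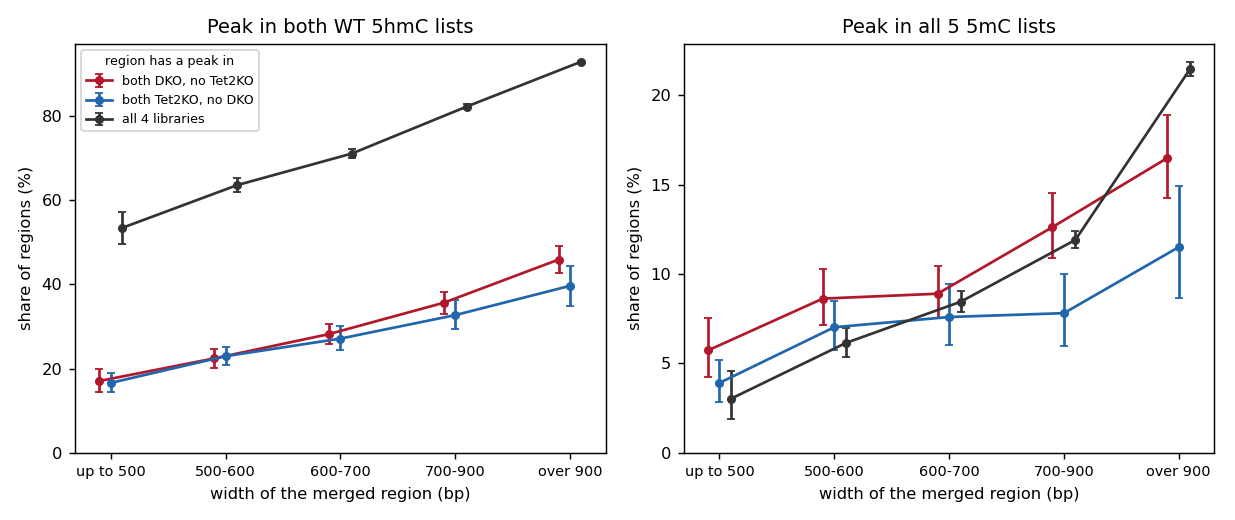
Share of merged regions (%) with a peak in both WT 5hmC lists (left) and in all 5 5mC lists (right), by width of the region in bp, with exact binomial 95% intervals over regions. At 500 to 700 bp the regions of DKO alone and of Tet2KO alone have near-equal shares in WT, and regions with a peak in all 4 libraries lie far above both on the left.

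Regions of 1 genotype alone were spread over all autosomes. DKO alone made up from 2.75% of regions on chromosome 19 to 3.58% on chromosome 6, and Tet2KO alone from 2.02% on chromosome 8 to 3.12% on chromosome 6. DKO alone was more numerous than Tet2KO alone on 18 of 19 chromosomes, the exception being chromosome 19 with 179 and 183. In windows of 5 Mb with at least 200 regions, of which there were 343, the share of DKO alone ran from 0.444% to 7.71% with a median of 2.99%. The highest shares were on chromosome 16 from 35000001 to 40000000 (32 of 415 regions), chromosome 11 from 110000001 to 115000000 (39 of 572) and chromosome 17 from 75000001 to 80000000 (25 of 373). For Tet2KO alone the shares ran from 0.310% to 6.63% with a median of 2.29%, and the first 2 windows were neighbours on chromosome 6, from 130000001 to 135000000 (22 of 332) and from 135000001 to 140000000 (23 of 374).

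Coverage of 100 kb bins was compared over the 12893 bins with a peak in at least 2 of the 4 libraries. The mean share of a bin covered was 8.50% and 8.17% in DKO, 7.83% and 7.60% in Tet2KO, and 8.63% and 8.43% in WT. With no difference between the genotypes, 2 libraries against 2 would lie fully apart in about 0.333 of bins by order alone. That share is split evenly between the directions, so lying apart does not mark a given bin as different. Both DKO libraries lay above both Tet2KO libraries in 3263 bins (25.3%), and below both in 1460 bins (11.3%). In the first set the libraries of DKO averaged 12.7% and 12.3%, those of Tet2KO 10.1% and 10.03%, and those of WT 12.3% and 11.9%. In the second they were lower throughout, at 3.49% and 3.51% in DKO, 4.72% and 4.61% in Tet2KO, and 4.12% and 4.18% in WT. The Tet2KO libraries served to choose both sets of bins, so the place of WT beside them is given as values only.

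No bin passed the test across all bins. In limma on the arcsine of the square root of the covered fraction, with Benjamini-Hochberg adjustment over 12893 bins, 0.0% of bins had an adjusted p under 0.05 and the smallest adjusted p was 0.690. At an unadjusted p under 0.05 there were 646 bins higher and 266 bins lower in DKO (7.07% of those tested). The labels do not state that replicates came from separate animals, so these p-values measure only the spread between the samples, which may be technical. The counts changed when single libraries were left out, but all spread then came from the genotype that kept 2 libraries, so such counts set no balance. On the scale of the test, 60.9% of bins were higher in DKO without DKO replicate 1 and 62.3% without DKO replicate 2. The shares were 60.2% without Tet2KO replicate 1 and 56.6% without Tet2KO replicate 2. With all 4 libraries the share was 61.2%. The bins tested differed too, at 12421 to 12670 with a library left out. When each library was scaled to the same total covered length, an alternative chosen after seeing the data, 47.2% were higher (6089 against 6804), with 337 higher and 379 lower at an unadjusted p under 0.05. With every list cut to the same number of top-ranked peaks 63.3% were higher, and with a score of at least 100 the share was 61.2%. The excess was therefore present with equal numbers of top-ranked peaks and with a score of at least 100. Scaling to equal covered length removes the difference in total length by construction, so the 47.2% is not a test of that excess.

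The difference between the genotypes varied with the density of 5hmC in the bin, but not in the same way in both DKO libraries. Relative to the Tet2KO mean, DKO replicate 2 was 9.65% higher in the decile of bins with the least 5hmC, 6.07% higher in the densest decile, and between 4.39% and 7.17% higher in the others. For DKO replicate 1 the difference was -23.7% in the sparsest decile and 14.2% in the densest. Its values followed those of WT, which were -23.6% and -19.8% in the sparsest decile and 16.01% and 12.5% in the densest. The rise of the mean difference with density, from -7.03% to 10.1%, therefore rests on DKO replicate 1. The share of bins with both DKO libraries above both Tet2KO libraries was 15.9% in the sparsest decile and 46.4% in the densest, and the share of bins below was 16.9% and 1.47%. Both shares of the sparsest decile lay near what order alone would give. In the densest decile the libraries covered 31.6% and 29.3% of a bin in DKO against 28.1% and 27.2% in Tet2KO.

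**Figure D4:**
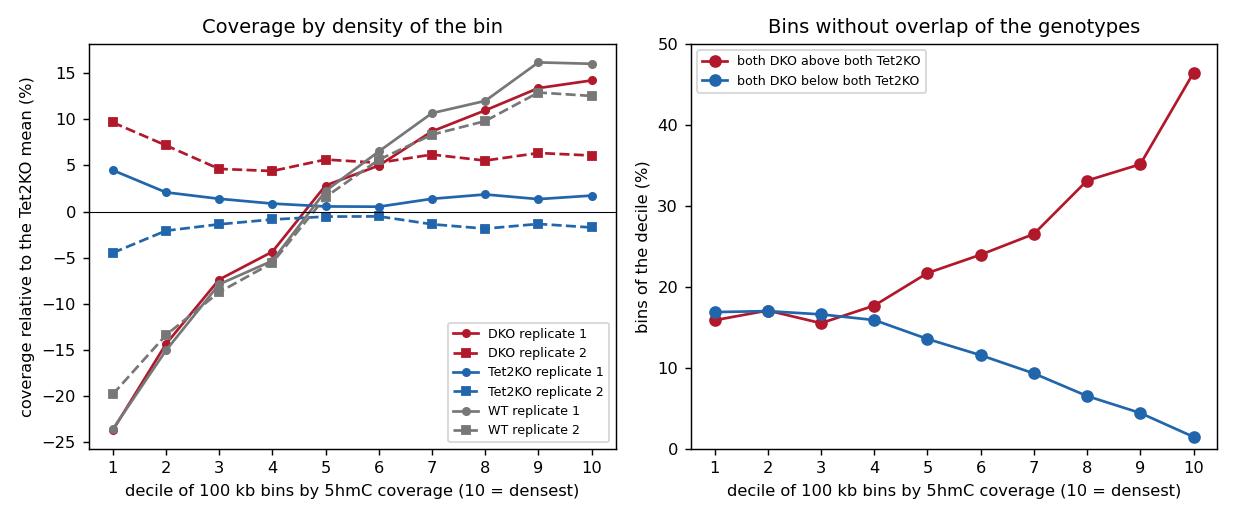
Left, mean coverage of 100 kb bins relative to the mean of the Tet2KO libraries (%) in deciles of bins by 5hmC coverage, for each library, and right, the share of bins (%) in which both DKO libraries lay above or below both Tet2KO libraries. DKO replicate 1 runs with the WT libraries from -23.7% to 14.2%, whereas DKO replicate 2 stays between 4.39% and 9.65%.

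Along the chromosomes the difference varied less. With each chromosome divided into 10 parts, the DKO mean was higher than the Tet2KO mean by 6.54% in the first part to 9.35% in the last. The first part was covered to 6.25% and 6.08% in DKO against 5.91% and 5.66% in Tet2KO. The last had the most 5hmC of all, with 11.2% and 10.5% covered in DKO against 10.1% and 9.81% in Tet2KO. The rise was larger in DKO replicate 1 than in DKO replicate 2.

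A stretch on chromosome 11 had the lowest p of all bins. In the bin from 112900001 to 113000000 (mm9) the peaks covered 13.7% and 12.3% in the DKO libraries and 3.41% and 3.52% in the Tet2KO libraries, with 17 and 15 peaks against 3 and 5. Both WT libraries were at the DKO level, with 13.8% and 13.3%. The next bin, from 113000001 to 113100000, was covered to 18.5% and 14.8% in the DKO libraries, 5.46% and 4.30% in Tet2KO, and 12.1% and 11.2% in WT. The differences were 0.182 (SE 0.0193) and 0.197 (SE 0.0253) on the arcsine scale, with a limma adjusted p of 0.690 for each over all bins. When only the 6296 bins with a mean coverage of at least 5% were tested, these 2 bins had an adjusted p of 0.0172 each in limma. Their Tet2KO means, 3.47% and 4.88%, were under that minimum and their DKO means, 13.0% and 16.6%, above it, so both entered that set only through DKO and the value is no support for the difference. Coverage by 5mC peaks differed little across genotypes in the first bin, from 5.47% in the Tet2KO 5mC list to 7.06% in 1 of the DKO lists.

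Single regions show what made up this difference. Of 19 regions in the first bin, 12 had a peak in both DKO libraries and 2 in both Tet2KO libraries, and 7 were regions of DKO alone, of which 5 had a peak in both WT libraries. In the second bin, of 25 regions, 19 had a peak in both DKO libraries and 6 in both Tet2KO libraries, and 12 were regions of DKO alone, 6 of them in both WT libraries. Neither bin had a region of Tet2KO alone. The region at 112967939 to 112969137 had score percentiles of 67.7 and 70.3 in DKO and a peak in both WT libraries. At 113055555 to 113056766 the percentiles were 75.6 and 53.4, again with a peak in both WT libraries. A region of the first bin was called in all 4 libraries at high rank, at 112923904 to 112925770, with percentiles of 92.2 and 96.5 in DKO and 91.3 and 82.1 in Tet2KO. A region of the second bin, at 113043146 to 113044397, was called in all 4 at unequal rank, 74.99 and 84.2 in DKO against 19.9 and 6.96 in Tet2KO. The lower Tet2KO coverage of this stretch thus took in both missing peaks and lower-ranked ones.

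The rule of smallest p with a coverage of at least 2% named 8 more bins higher in DKO, and all had an adjusted p of 0.690 in limma. On chromosome 1 the bin from 174500001 was covered to 9.39% and 9.81% in the DKO libraries, 3.77% and 3.46% in Tet2KO, and 6.61% and 8.06% in WT. Neighbouring bins were named on chromosome 9. The one from 102900001 had 8.31% and 8.74% in DKO, 2.81% and 3.56% in Tet2KO, and 7.20% and 7.87% in WT. The one from 103000001 had 19.1% and 15.9%, 7.87% and 7.32%, and 15.4% and 13.3%. The bin from 31900001 on chromosome 17, the densest of those named, was covered to 46.5% and 44.6% in the DKO libraries, 33.6% and 27.7% in Tet2KO, and 42.5% and 41.1% in WT. On chromosome 3 from 37500001 the shares were 23.4% and 24.02% in DKO, 14.1% and 15.02% in Tet2KO, and 22.6% and 20.1% in WT. Chromosome 10 from 74400001 and chromosome 4 from 127000001 were also named. The 2% minimum was a mean over the 4 libraries. The chromosome 4 bin, with a Tet2KO mean of 0.8085%, met it only through DKO. Any comparison of WT with Tet2KO at these bins shares the Tet2KO libraries that chose them. A bin on chromosome 11 from 107800001 was covered to 13.2% and 12.9% in the DKO libraries, 5.18% and 7.33% in Tet2KO, and 6.54% and 7.55% in WT. With no minimum of coverage, a bin on chromosome 16 from 28800001 was also named, with 2.21% and 2.31% in DKO, no peak in either Tet2KO library, and 0.377% and 1.403% in WT.

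Bins lower in DKO held less 5hmC. The first, on chromosome 6 from 137000001 to 137100000, was covered to 0.672% and 0.588% in the DKO libraries, 4.04% and 4.91% in Tet2KO, and 0 and 0.981% in WT. Its DKO mean, 0.63%, was under the 2% minimum, so it met that minimum only through the Tet2KO libraries. It held 1 peak in each DKO library and 7 and 9 in the Tet2KO libraries. Of its 10 regions, 6 had a peak in both Tet2KO libraries and none in both DKO libraries, 4 were regions of Tet2KO alone, and none of these 4 had a peak in both WT libraries. The widest of the 4, at 137072999 to 137073951, had percentiles of 21.7 and 43.0. The first bin of chromosome 9, from 3000001, was covered to 8.96% and 8.70% in the DKO libraries and 18.2% and 16.2% in Tet2KO. WT libraries differed widely there, at 3.27% and 11.8%, so this bin also varied within a genotype. On chromosome 18 the bin from 74100001 had 11.3% and 11.02% in DKO against 17.7% in each Tet2KO library, with 14.2% and 11.6% in WT. Of its 34 regions, 33 had a peak in at least 1 Tet2KO library. Only 11 had a peak in both Tet2KO libraries, and 11 had a peak in both DKO libraries. None of the 34 was a region of Tet2KO alone.

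The remaining bins lower in DKO were 2 on chromosome 11, from 61600001 and 61900001, and 1 each on chromosomes 15, 5, 19, 12 and 8, from 42300001, 120000001, 38000001, 42000001 and 119100001. Their mean coverage was between 0.987% (chromosome 12) and 7.997% (chromosome 8) in DKO. In Tet2KO the same bins gave the lowest and highest mean, 3.09% and 13.4%. The DKO means on chromosomes 11, 5 and 12 were under the 2% minimum, so these bins met it only through Tet2KO. WT overlapped Tet2KO on chromosome 5 (4.74% and 2.47% against 3.175% and 5.305%) and chromosome 8 (11.3% and 14.6% against 14.8% and 12.0%). There both WT libraries lay above both DKO libraries. In the rest of this list both WT libraries lay below both Tet2KO libraries, which helped choose the bins. With no minimum of coverage a bin on chromosome 9 from 4300001 was named, without a DKO peak. It was covered to 1.36% and 1.69% in Tet2KO and to 1.08% and 0.34% in WT. All had an adjusted p of 0.690 in limma.

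**Figure D5:**
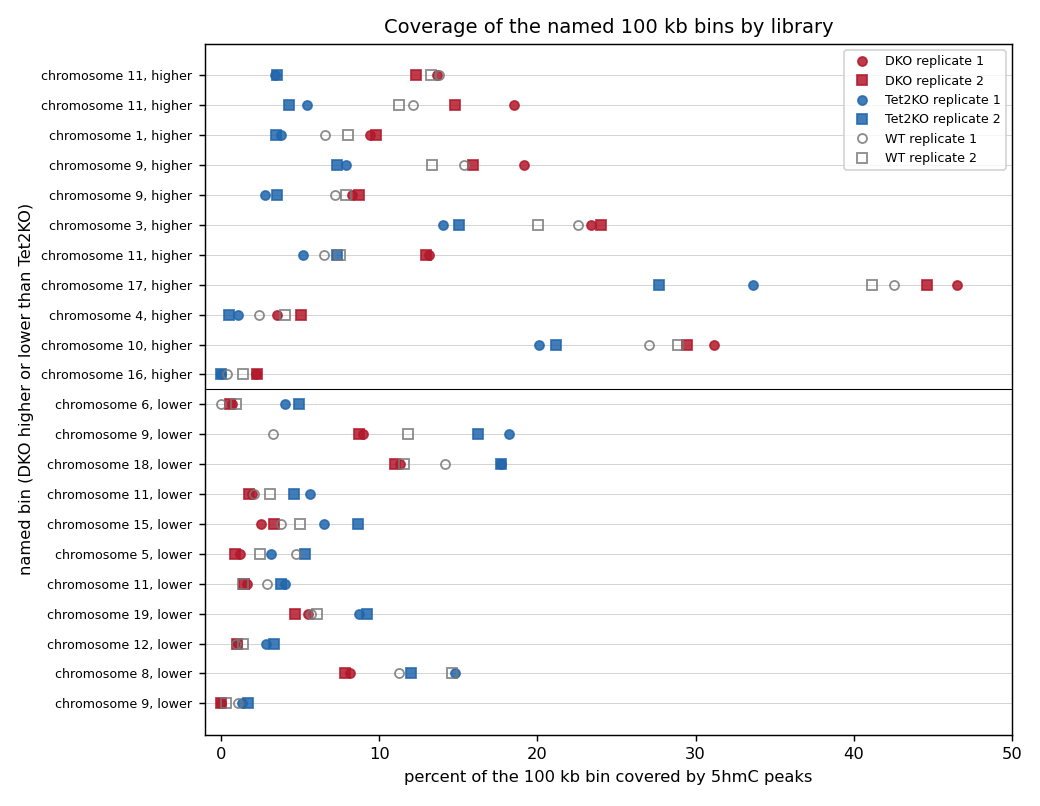
Share of each named 100 kb bin covered by 5hmC peaks (%) in the DKO, Tet2KO and WT libraries, with the bins higher in DKO above the line and those lower in DKO below it. Both chromosome 11 bins at the top have DKO and WT points between 11.2% and 18.5% and Tet2KO points at or below 5.46%.

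Of the 3263 bins higher without overlap (25.3% of bins), 1668 (51.1%) adjoined another of their kind and 1595 stood singly. Of the 1460 lower ones (11.3% of bins), 358 (24.5%) adjoined another and 1102 stood singly. A set of fewer bins adjoins less often and forms shorter runs by number alone, and adjoining beyond that was not tested. The longest run higher in DKO was on chromosome 4 from 147400001 to 148500000, where 11 bins in a row had mean coverage of 13.1% and 11.7% in DKO, 9.44% and 8.07% in Tet2KO, and 12.3% and 12.2% in WT. Runs of 10 bins on chromosome 18 from 79900001 to 80900000 and of 8 bins on chromosome 15 from 78600001 to 79400000 followed. On chromosome 3 a run of 7 bins from 37500001 to 38200000 had 10.2% and 10.5% in DKO against 5.85% and 6.50% in Tet2KO. Another of 7 lay on chromosome 5 from 36100001 to 36800000. Runs lower in DKO were shorter. The longest one, of 4 bins on chromosome 6 from 136700001 to 137100000, had 8.61% and 8.54% in DKO, 11.7% and 10.9% in Tet2KO, and 10.2% and 10.1% in WT, and ended with the chromosome 6 bin described above. A second run of 3 bins lay on the same chromosome from 134600001 to 134900000.

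Within the 73126 regions called in all 4 libraries, within-list score rank differed little on average between the genotypes, which ranking within each list favours by its construction. The median difference in percentile was 0.700 points, with quartiles of -6.47 and 8.83. Both DKO libraries ranked a region above both Tet2KO libraries in 12589 cases (17.2%) and below in 10893 (14.9%). Together these lay near the share of about 0.333 that order alone would give. In limma with Benjamini-Hochberg adjustment 0.0% of regions passed and the smallest adjusted p was 0.765, with 2408 higher and 2034 lower at an unadjusted p under 0.05. On the log2 of the score itself, which takes the scores of all libraries as 1 scale, 0 regions passed in limma and 2130 were higher and 1112 lower at an unadjusted p under 0.05. Counts by p moved when single libraries were left out, but all spread then came from the genotype that kept 2 libraries. The median difference was 1.73 points without DKO replicate 1 and 0.305 points without DKO replicate 2. Without Tet2KO replicate 1 the median difference was -0.43 and without Tet2KO replicate 2 it was -0.038, so even its sign was not stable across these fits. They took all regions called in the libraries kept, 78887 to 85002 regions, so the set of regions changed as well as the libraries.

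Some shared regions were nonetheless far apart in rank. On chromosome 11 at 18907136 to 18908124 the percentiles were 76.1 and 82.9 in DKO, high in the list, and 1.78 and 4.65 in Tet2KO, near its bottom. On chromosome 12 from 12504268 to 12505250 they were 74.1 and 67.95 against 0.047 and 3.07, and on chromosome 19 from 47779703 to 47780672 they were 61.7 and 64.2 against 2.87 and 0.392. The rule also named chromosome 5, 106264053 to 106265100, and chromosome 1, 140031979 to 140032760. In the other direction, the region on chromosome 15 at 36401085 to 36401860 had 0.226 and 1.48 in DKO and 74.8 and 70.9 in Tet2KO. The region on chromosome 4 at 124473183 to 124473971 had 34.3 and 34.6 against 94.4 and 95.8. The other 3 started at 48304434 on chromosome 2, 41019223 on chromosome 13 and 22611819 on chromosome 9. All 5 regions ranked lower in DKO had a peak in both WT libraries, as did 1 of the 5 ranked higher. Among all regions with a peak in all 4 libraries the share was 86.1%. Each of the 10 had an adjusted p of 0.765 in limma.

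The width covered within these shared regions was greater in DKO as a whole, again with unequal libraries. Median covered length was 841 bp and 772 bp in DKO and 767 bp and 729 bp in Tet2KO. The median of the log2 difference was 0.079, with quartiles of -0.064 and 0.25. Both DKO libraries were wider than both Tet2KO libraries in 18492 regions (25.3%) and narrower in 6626 (9.06%). Order alone would give about 0.333 of regions in both directions together. In limma with Benjamini-Hochberg adjustment 0.0% passed and the smallest adjusted p was 0.656, with 3276 wider and 741 narrower at an unadjusted p under 0.05. The mean was wider in DKO for 64.6% of regions. Centring each library on its median, an alternative chosen after seeing the data, shifted the median difference to -0.028 and left 44.8% wider, with 1998 wider and 1578 narrower at an unadjusted p under 0.05. Centring takes out a shift common to all regions by construction, so these values do not test such a shift. Without DKO replicate 1 the median difference was 0.032, and without DKO replicate 2 it was 0.136. It was 0.094 without Tet2KO replicate 1 and 0.039 without Tet2KO replicate 2. These fits also took all regions called in the libraries kept, 78887 to 85002 regions, so the set of regions changed too. Counts by p are not compared here, since all spread then came from the genotype that kept 2 libraries.

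Named regions of unequal width were of a few kinds. On chromosome 4 at 148776934 to 148778622, peaks covered 1381 bp and 1685 bp in DKO and 346 bp and 328 bp in Tet2KO. Chromosome 10 had such a region from 13095631 to 13097212 (1404 bp and 1476 bp against 376 bp and 426 bp) and another from 126429245 to 126431151, and chromosome 12 had one from 8783631 to 8785524. A much broader domain on chromosome 8 at 122929715 to 122939013 was covered over 9144 bp and 8862 bp in DKO by 2 and 3 peaks, and over 7069 bp and 6943 bp in Tet2KO by 5 peaks in each library. Among regions narrower in DKO, the one on chromosome 19 at 44218200 to 44220573 was covered over 771 bp and 698 bp in DKO and 2095 bp and 2271 bp in Tet2KO. The other 4 started at 118117207 on chromosome 6, 117113803 on chromosome 4, and 143822890 and 27232775 on chromosome 2. Each of these 10 regions had a peak in both WT libraries and an adjusted p of 0.656 in limma. All 10 were wider than 900 bp, and 93.0% of all shared regions above that width had a peak in both WT libraries.

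Single libraries also stood apart at places where no group difference was called. On chromosome 2 from 77700001 to 77800000, Tet2KO replicate 2 was covered to 49.7%, Tet2KO replicate 1 to 0.581%, the DKO libraries to 0.489% and 0.942%, and the WT libraries to 0.328% and 0.672%. On chromosome 4 from 8600001 to 8700000, Tet2KO replicate 1 was covered to 25.0% and Tet2KO replicate 2 to 5.88%, with 12.6% and 8.94% in DKO. The largest such excess of a DKO library was 10.8 percentage points, in DKO replicate 1 on chromosome 4 from 134600001 to 134700000 (69.3% against 58.5% in DKO replicate 2).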

How the data were processed

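Selective chemical labelling captured 5hmC from DNA of LK cells, per the labels' protocols, and Illumina libraries were made. Per the submitters' processing notes, the build was mm9 and the tools named, with no role given, include MACS 1.4.2, Bowtie 0.12.9 and CASAVA 1.4. The authors deposited 1 peak list per library with start, end and score. The lowest deposited score was 50. For control libraries, duplicate reads and depth, details were not given in the sources used here, so no read-count interval could be set.

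Positions are mm9, counted from 1. No mm9 annotation was used, so the planned gene lists were not run and no genes are named. Peaks overlapping by 1 bp were merged. Exact permutation tests (two-sided) served for totals, and bins and shared regions were fitted with limma 3.58.1 in R 4.3.3 (Benjamini-Hochberg, adjusted p under 0.05). Steps were tested on simulated data. Bins were named by smallest p (10 per direction with at least 2% covered, 3 without a minimum), regions of 1 genotype by width and rank (5 each), shared regions by smallest p (5), and runs by length (5). The comparison, rules and tests were chosen with earlier results of these data known. The 5 Mb windows, the look-up in left-out libraries and the single-library bins were added after the values were seen. Titles number the replicates but do not say that a number marks an animal or batch, so nothing was paired.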

Additional observations from a re-analysis of the deposited data

Results flagged for a closer look

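Chromosome X was outside the comparison and also carried 5hmC peaks: 521 and 614 in DKO, 693 and 622 in Tet2KO, 445 and 449 in WT. It is listed because peaks were called in data that the comparison did not use.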

How the results depend on the processing

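The difference in peak number had no stable sign: it was 0.484% with a score of at least 100, and -6.18% to 3.80% when single libraries were left out. Covered length stayed higher in DKO under every setting run, from 5.86% to 10.1% (9.38% with a score of at least 100, 9.04% with equal numbers of top peaks), and median width from 1.22% to 14.5%. Regions of DKO alone numbered 3049 and those of Tet2KO alone 2039 with a score of at least 100, and 3390 and 2804 when no peak of the other genotype was allowed within 1 kb. Leaving out a library gave 15065 to 21102 and 9889 to 22725, where the genotype with 1 library asks less of a region, so these counts set no balance. DKO alone stayed the larger set with equal top peaks (6071 and 4132), with peaks up to 500 bp apart merged (4219 and 3614) and with WT in the merge (5760 and 4517).

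Limma called 2 bins higher in DKO where bins needed 0.05 of their length covered on average, which both met only through the DKO libraries, and, when libraries were left out, 0 to 1 bins lower. That 1 bin, without Tet2KO replicate 1, was the chromosome 2 bin from 77700001 in which Tet2KO replicate 2 stood apart (adjusted p = 0.000443), and the lone Tet2KO library is then assumed to vary like DKO. With a replicate block, limma called 0 bins, with 617 higher and 246 lower at an unadjusted p under 0.05 (smallest adjusted p 0.732). Same-numbered libraries had deviations correlated at 0.0395 over 12893 bins, and whether the numbers mark a batch was not tested. In the shared regions the block also called 0. No other call changed under the other settings run. An equal number of top peaks gives no value for peak number. Unknown depth limits every comparison of length and width.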
